A study of Homo sapiens with 8 samples.

Results

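The gene set described here comprised 37 named genes of glycolysis and the hypoxia response, 24 of glycolysis and 13 others of the hypoxia response, among the 60282 genes listed in the count table. The rule takes them by gene name and uses no measured value, but the set was proposed with earlier results of these data known. RNA-seq was performed on SK-UT-1 cells, a human uterine leiomyosarcoma (uLMS) cell line, that received vehicle (n = 4) or 5 µM TP-472, an inhibitor of the bromodomain proteins BRD9 and BRD7, in both cases for 48 h. The comparison asked how the inhibitor alters the transcriptome of these cells. All samples were 1 cell line under ordinary culture, and no hypoxic condition was included. The paper states that all its experiments had biological replicates, without describing those of the RNA-seq. Nothing in the labels says that the 4 replicates of a group were separate cultures. The p-values therefore measure the spread between these samples only. The libraries held 32574716 to 36634184 estimated counts in the vehicle group and 36246466 to 38545695 in the TP-472 group.

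Glycolysis splits glucose into pyruvate in the cytosol. Isozymes encoded by separate genes carry out many of its steps, and lactate dehydrogenase turns pyruvate into lactate, which leaves the cell through monocarboxylate transporters. When oxygen is low, the transcription factor subunit HIF-1α escapes degradation and, with ARNT, switches on genes that carry hypoxia response elements, among them many glycolytic genes, and tumor cells often keep glycolysis high even when oxygen is present.

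The labelled origin, a smooth muscle tumor, was checked against marker genes. Of 12 smooth muscle markers, 9 exceeded 1 CPM (counts relative to library size) in at least 4 libraries, with TPM2, a tropomyosin, the most abundant at a mean of 397 CPM, whereas ACTG2, MYH11 and MYOCD were under 1 CPM in every library. All 8 mesenchymal markers exceeded 1 CPM, led by VIM at 2223 CPM. Among markers of other cell types, 3 of 8 epithelial markers (KRT18 the highest at 11.5 CPM), 1 of 8 leukocyte markers (CD68) and 1 of 8 endothelial markers (EMCN) passed that level, and EPCAM, PTPRC and PECAM1 stayed under 1 CPM everywhere. The summed smooth muscle markers lay at 805 to 1210.0 CPM in vehicle and 683 to 749 CPM with TP-472, and the mesenchymal ones at 3781 to 5344 and 2482 to 2631 CPM. For the epithelial, leukocyte and endothelial lists the sums were 18.7 to 24.4 against 21.9 to 28.5 CPM, 7.15 to 8.62 against 10.15 to 13.3 CPM and 16.5 to 21.7 against 7.74 to 9.35 CPM. Whether these shifts play a part in the results was not tested, and a bulk library cannot tell fewer cells of a kind from less RNA per cell. The transcripts of the drug targets were measured too, BRD9 at 80.1 ± 23.1 CPM (SD, n = 4) in vehicle and 71.5 ± 3.17 CPM with TP-472, and BRD7 at 56.2 ± 0.583 and 60.8 ± 2.65 CPM, and neither was called, which with the spread of BRD9 in vehicle does not show that it stayed constant.

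One library stood apart. Vehicle replicate 3 had a median Spearman correlation across genes of 0.914 with its own group, where the other vehicle libraries had 0.988 to 0.989 and the TP-472 libraries 0.993 to 0.997. Its ratio to the mean of the other vehicle libraries rose with the GC content of the transcript (Pearson r = 0.75 over 13931 genes, a description in which all genes share 1 library). Among the 36 members tested it was the highest vehicle library for 15 genes, the lowest for 18 and inside the range of the others for 3. The median coefficient of variation of the members was 18.5% across the 4 vehicle libraries, 7.74% without replicate 3 and 6.09% across the TP-472 libraries. The group labels give no reason to leave this library out, and values are therefore given with it and, where it matters, without it.

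Promoter windows from RefSeq (GRCh38.p14), 250 bases before to 50 after an annotated start, were read for 31 of the 37 members, 62 windows in all because many genes have several starts. BNIP3L and NDRG1 were left out by a filter on genomic position that was set in the processing here. SLC2A3, VEGFA, SLC16A1 and PFKFB2 had no entry among the windows used here. Neither absence shows that RefSeq lacks a start for these genes. The core letters of the hypoxia response element, ACGTG or GCGTG, were searched on both strands, and the palindrome CACGTG counts as ACGTG on each strand. Of the genes called higher with TP-472, SLC2A3 and NDRG1 had no window here and could not be compared. Shown first are windows of the 4 genes with the most ACGTG matches among those called higher that had a window. The window of PFKL, the 1 gene called lower, follows, and every match of either core is in capitals.
LDHA, chr11:18394313-18394612, plus strand: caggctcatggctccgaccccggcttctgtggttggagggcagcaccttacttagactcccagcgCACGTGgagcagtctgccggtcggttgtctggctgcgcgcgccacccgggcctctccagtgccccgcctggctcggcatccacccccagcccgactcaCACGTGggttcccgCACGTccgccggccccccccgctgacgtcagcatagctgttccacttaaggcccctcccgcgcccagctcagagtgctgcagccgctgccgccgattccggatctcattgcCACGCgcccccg
ANKRD37, chr4:185396591-185396890, plus strand: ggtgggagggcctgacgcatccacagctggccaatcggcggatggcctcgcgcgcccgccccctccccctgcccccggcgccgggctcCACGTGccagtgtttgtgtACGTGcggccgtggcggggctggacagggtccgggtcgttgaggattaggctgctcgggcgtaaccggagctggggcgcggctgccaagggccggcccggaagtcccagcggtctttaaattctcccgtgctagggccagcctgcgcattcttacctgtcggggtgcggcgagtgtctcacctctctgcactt
AK4, chr1:65147603-65147902, plus strand: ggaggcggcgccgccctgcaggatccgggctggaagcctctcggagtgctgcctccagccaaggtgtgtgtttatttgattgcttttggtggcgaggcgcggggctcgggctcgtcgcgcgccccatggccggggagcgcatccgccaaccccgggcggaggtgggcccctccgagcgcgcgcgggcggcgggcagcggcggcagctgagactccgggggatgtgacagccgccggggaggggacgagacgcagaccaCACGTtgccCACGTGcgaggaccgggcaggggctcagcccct
PFKFB3, chr10:6202682-6202981, plus strand: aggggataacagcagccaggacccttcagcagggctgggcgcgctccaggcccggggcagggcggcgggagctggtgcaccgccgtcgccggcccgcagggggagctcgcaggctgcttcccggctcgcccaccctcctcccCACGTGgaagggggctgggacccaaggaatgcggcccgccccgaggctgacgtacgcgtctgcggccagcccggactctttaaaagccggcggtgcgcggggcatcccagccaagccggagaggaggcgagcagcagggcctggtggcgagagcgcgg
PFKL, chr21:44299803-44300102, plus strand: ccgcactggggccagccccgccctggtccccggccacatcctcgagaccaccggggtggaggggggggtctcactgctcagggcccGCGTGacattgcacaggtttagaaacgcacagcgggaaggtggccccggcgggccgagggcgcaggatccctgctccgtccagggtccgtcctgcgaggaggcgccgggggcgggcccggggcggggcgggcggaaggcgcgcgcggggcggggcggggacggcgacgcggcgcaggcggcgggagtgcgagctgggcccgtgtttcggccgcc
The LDHA window held 5 matches to ACGTG and 1 to GCGTG, the ANKRD37 and AK4 windows 3 matches to ACGTG each, the PFKFB3 window 2, and the PFKL window 0 to ACGTG and 1 to GCGTG. Among the 62 member windows, 24 (38.7%) held ACGTG and 43 (69.4%) either core, against 21.4% and 48.4% of all 35116 RefSeq windows of the same length. The filter on genomic position was applied to the member windows only, so these shares come from sets chosen by different rules. At least 3 matches to ACGTG occurred in 6 member windows, of HK2, ALDOC, PGK1, LDHA, AK4 and ANKRD37, and in 1.98% of all windows. Of these, HK2, ALDOC and PGK1 were not called with TP-472, and ADM, which was, had no ACGTG in its windows. A match describes the letters of a window and is not a binding site.

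Genes were called when the adjusted p-value of edgeR's quasi-likelihood test was under 0.05 and the change was over 1.5-fold. Of 14073 genes tested, 1693 (12.0%) were called higher with TP-472 and 2096 (14.9%) lower. All members but CA9 were tested, and each of these 36 exceeded 1 CPM in all 8 libraries, so none entered through 1 group alone. Among the 24 glycolysis genes, 3 were called higher (SLC2A3, PFKFB3 and LDHA), 1 lower (PFKL) and 20 did not pass. Among the 12 hypoxia response genes tested, AK4, ADM, NDRG1 and ANKRD37 were called higher, none was called lower and 8 did not pass. The share called higher in glycolysis was near that of all genes. Glycolysis genes had a median log2 fold change of 0.22 and hypoxia response genes one of 0.48, beside -0.03 for all genes tested. These medians were 0.24, 0.44 and 0.00 with vehicle replicate 3 left out. An adjusted p under 0.05 with no limit on the fold was reached by 13 of the 36 members together and by 36.3% of all genes, which are like shares. The parts differed: 7 of the 24 glycolysis genes reached it. Of the 12 hypoxia response genes EGLN3, AK4, BNIP3, ADM, NDRG1 and ANKRD37 did, which is a larger share. All 4 TP-472 libraries lay above all 4 vehicle libraries for 9 glycolysis and 8 hypoxia response genes, where 23.8% of all genes did so, and below them for 2 glycolysis genes (PFKL and GPI), where 21.6% did so. Without vehicle replicate 3, 12.4% of 14217 genes were called higher and 13.5% lower. The members called were then 8, all higher: SLC2A1, HK2, PFKFB3, LDHA, AK4, ADM, NDRG1 and ANKRD37. SLC2A3 and PFKL, at log2 fold changes of 0.52 and -0.58, then missed the fold limit.

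**Figure D1:**
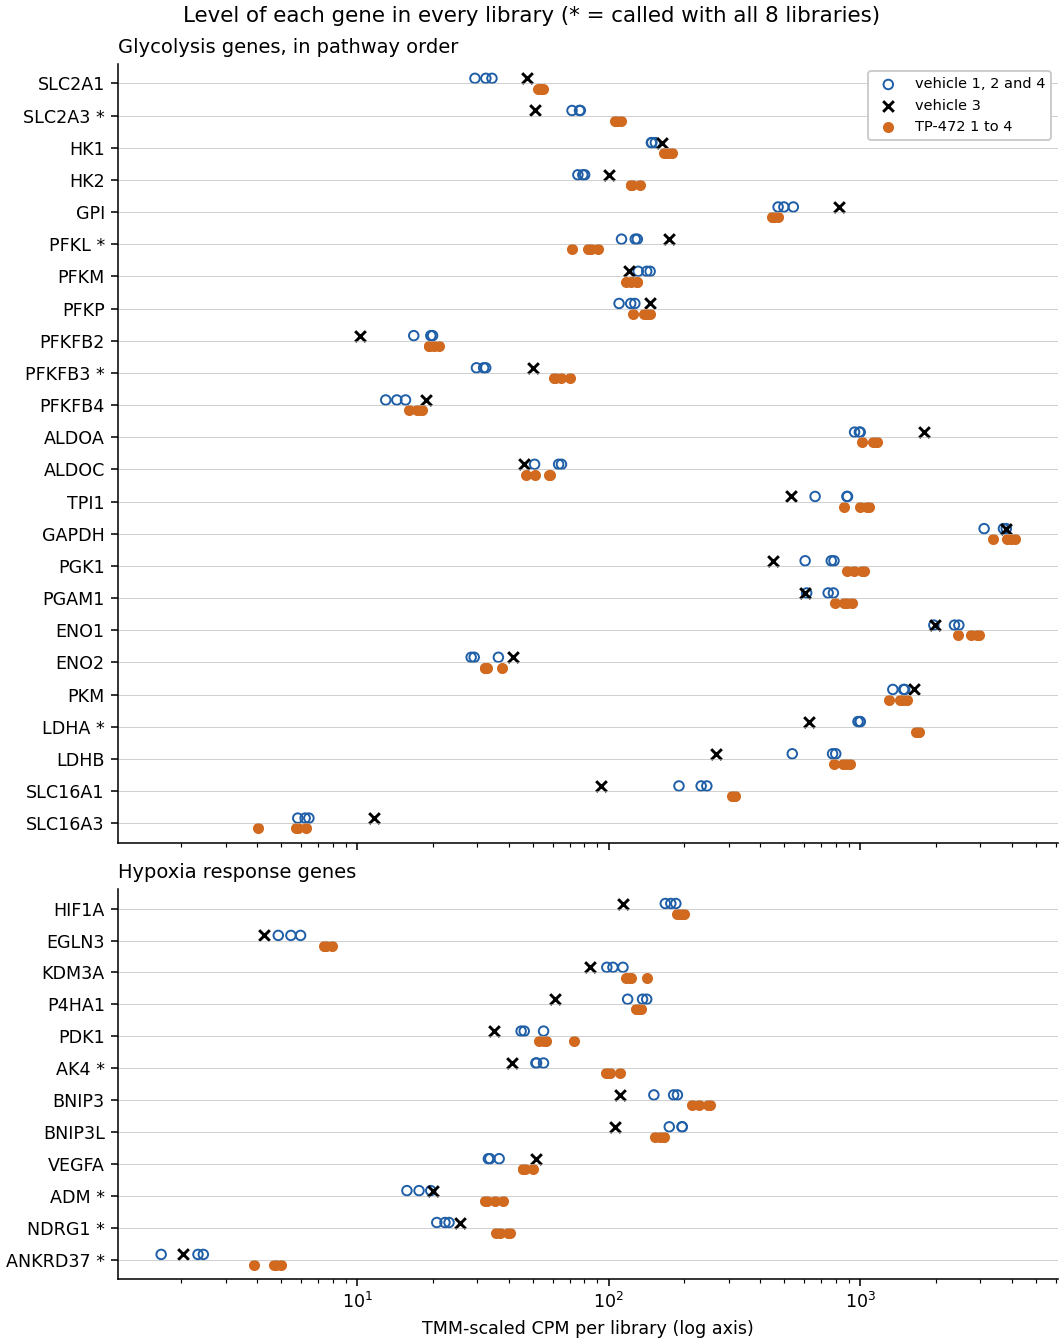
Level of each of the 36 members tested in every library, in TMM-scaled CPM on a log axis, with vehicle replicates 1, 2 and 4 as open circles, vehicle replicate 3 as a cross and the TP-472 libraries as filled circles. An asterisk marks the 8 genes called with all libraries. For LDHA, AK4, ADM, NDRG1 and ANKRD37 the filled circles lie to the right of every vehicle library, and the cross often lies at an end of the vehicle group.

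**Figure D2:**
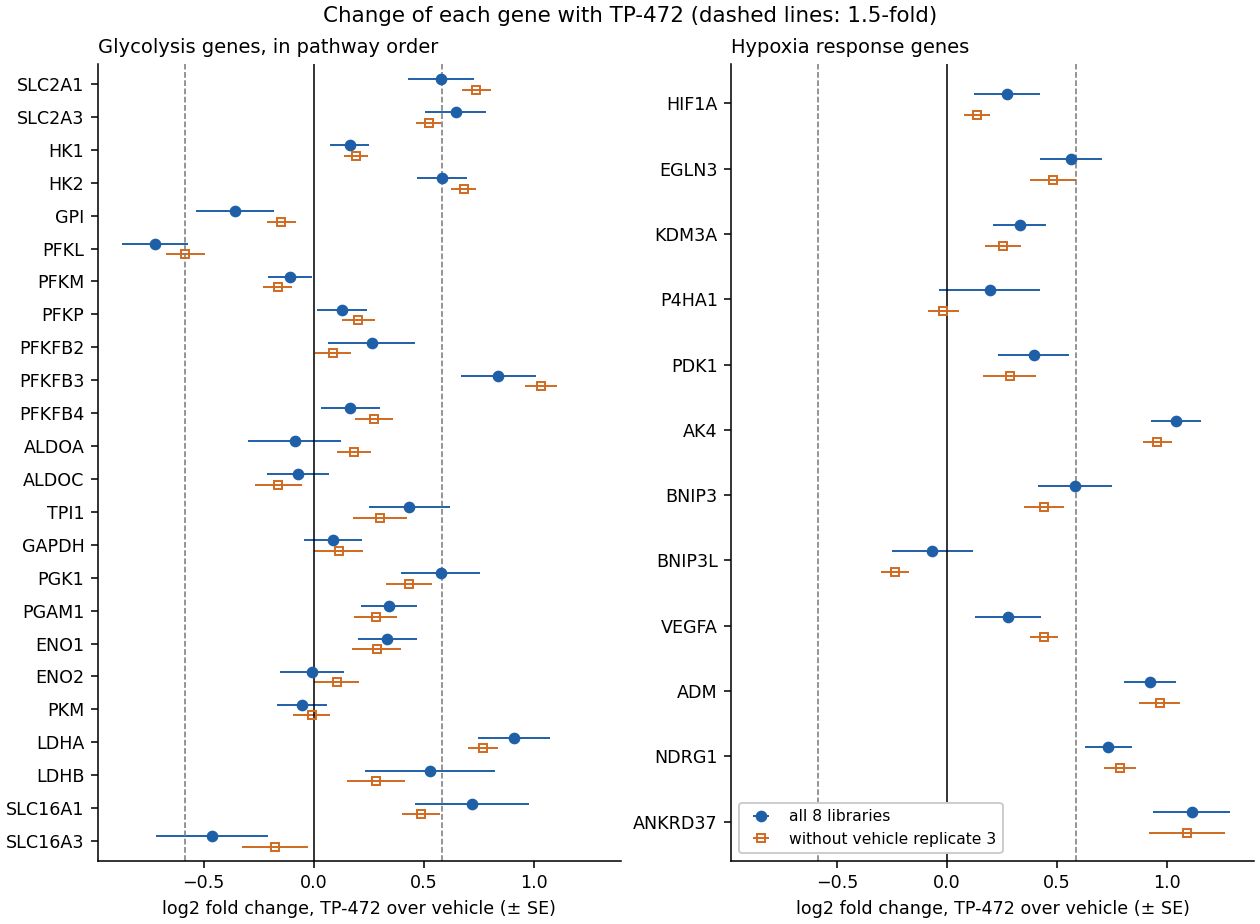
Log2 fold change of each member with TP-472 over vehicle (± SE) from all 8 libraries (filled circles) and without vehicle replicate 3 (open squares), with dashed lines at 1.5-fold in either direction. Most points lie right of 0, PFKL lies farthest left, and leaving out the library narrows most error bars.

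The glucose transporters at the cell surface are the entry to the pathway, and SLC2A1 (GLUT1) and SLC2A3 (GLUT3) are the members measured here. The level of SLC2A3 (chr12:7919230-7936275, GRCh38) was 71.5, 77.1, 51.15 and 76.6 CPM in vehicle replicates 1 to 4 and 105.6, 107.1, 107.8 and 112.1 CPM in TP-472 replicates 1 to 4. The groups did not overlap, with vehicle replicate 3 the lowest, and the gene rose by 0.65 ± 0.14 on the log2 scale (SE; adjusted p = 0.00755). With a GC correction the change in SLC2A3 was 0.57, and it was 0.52 without vehicle replicate 3, both under the fold limit. SLC2A1 (chr1:42925375-42959176) lay at 34.4, 29.4, 47.4 and 32.5 CPM in vehicle and at 53.9, 54.96, 53.5 and 52.4 CPM with TP-472. Every TP-472 library was higher, but vehicle replicate 3 was here the highest of its group, and at 0.58 ± 0.15 (adjusted p = 0.0167) the gene fell just short of the fold limit. SLC2A1 was called without that library (0.74 ± 0.07) and with the GC correction on all libraries (0.73, adjusted p = 3.29e-05). The ratio of SLC2A3 to SLC2A1 within a library ranged from 1.08 to 2.62 in vehicle and from 1.95 to 2.14 with TP-472, so the groups overlapped (exact two-sided permutation p = 0.971).

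Hexokinases trap glucose as glucose 6-phosphate, HK1 being widely expressed and HK2 the inducible isozyme of muscle and many tumors. HK2 (chr2:74833981-74893359) was at 80.3, 75.45, 100.7 and 78.9 CPM in vehicle and 124.0, 123.2, 122.7 and 132.9 CPM with TP-472. The groups did not overlap, and the change of 0.58 ± 0.11 (adjusted p = 0.00508) lay just under the 1.5-fold limit and was not called with all libraries. It was called without vehicle replicate 3 (0.68 ± 0.06) and with the GC correction on all libraries (0.62, adjusted p = 8.3e-05). HK1 lay at 153 ± 7.12 CPM in vehicle and 172 ± 5.02 CPM with TP-472, a log2 change of 0.16 ± 0.09 that did not pass (adjusted p = 0.167). The HK2 to HK1 ratio was 0.543, 0.508, 0.617 and 0.514 in vehicle and 0.697, 0.72, 0.714 and 0.801 with TP-472, with no overlap.

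GPI, the isomerase that turns glucose 6-phosphate into fructose 6-phosphate, was at 542, 472, 824 and 497 CPM in vehicle and 471, 451, 455 and 448 CPM with TP-472. All TP-472 libraries lay below the vehicle ones, by little for replicates 1, 2 and 4, and the log2 fold change of -0.36 ± 0.18 did not pass (adjusted p = 0.141). It was -0.15 ± 0.07 without vehicle replicate 3.

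Phosphofructokinase commits the sugar to glycolysis, and its liver, muscle and platelet subunits are encoded by PFKL, PFKM and PFKP. PFKL (chr21:44300051-44327376) was measured at 112.5, 130.0, 174.1 and 127.6 CPM in vehicle and at 85.0, 90.6, 83.0 and 71.2 CPM with TP-472. No TP-472 library reached the lowest vehicle one, and the change was -0.72 ± 0.15 (adjusted p = 0.00666). PFKL was also the member with the highest GC content (64.1%), and with a correction for GC content its change was -0.32 (adjusted p = 0.0959) and no longer passed. Leaving out vehicle replicate 3 gave -0.58 ± 0.09 (adjusted p = 0.000434), and adding the GC correction to that gave -0.46 (adjusted p = 0.000995), both under the fold limit.

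The other subunits did not pass, PFKM at 135 ± 11.7 CPM in vehicle and 125 ± 6.14 CPM with TP-472, and PFKP at 126.5 ± 15.1 and 138 ± 9.30 CPM. The change in PFKP was 0.13 ± 0.11 with all libraries (adjusted p = 0.396), 0.20 ± 0.08 without vehicle replicate 3 (adjusted p = 0.0436) and 0.35 with the GC correction (adjusted p = 0.0183), under the fold limit in each. The ratio of PFKP to PFKL stood at 0.978, 0.942, 0.841 and 0.996 in vehicle and 1.68, 1.62, 1.66 and 1.76 with TP-472. The platelet transcript was thus level with or just under the liver transcript in every vehicle library and above it in every TP-472 library on this count scale, which does not account for transcript length. PFKM to PFKL was 0.689 to 1.165 in vehicle and 1.36 to 1.64 with TP-472, also without overlap. Both ratios reached the smallest p-value that the exact permutation test allows, and neither passed adjustment over the ratios compared (adjusted p = 0.0571 for both). A ratio does not show which subunit stayed constant.

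The bifunctional PFKFB enzymes make and remove fructose 2,6-bisphosphate, the strongest activator of phosphofructokinase, and PFKFB3 favors its synthesis. PFKFB3 (chr10:6144934-6254644) was at 32.45, 29.8, 49.85 and 31.8 CPM in vehicle and 70.5, 64.9, 61.2 and 60.8 CPM with TP-472. The groups did not overlap although vehicle replicate 3 lay well above its group, and the change was 0.84 ± 0.17 (adjusted p = 0.00613), or 1.03 ± 0.07 without that library. PFKFB4 (15.4 ± 2.49 and 17.3 ± 0.892 CPM) and PFKFB2 (16.7 ± 4.47 and 20.0 ± 0.911 CPM) overlapped between groups and did not pass, with log2 changes of 0.17 and 0.26, or 0.27 and 0.09 without vehicle replicate 3. PFKFB4 relative to PFKFB3 was 0.3775 to 0.489 in vehicle and 0.255 to 0.2815 with TP-472, with no overlap. PFKFB2 shares 3.09% of its exon bases with YOD1 on the opposite strand, which was the more abundant of the pair.

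The aldolases cleave the sugar into 3-carbon units and TPI1 interconverts them. ALDOA, the main isozyme of muscle, was at 993, 950.4, 1795 and 1001 CPM in vehicle and 1167, 1159, 1127 and 1013 CPM with TP-472. The sign of its change turned on 1 library: -0.09 ± 0.21 with all libraries and 0.18 ± 0.08 without vehicle replicate 3, neither passing. ALDOC, an isozyme known from brain, lay at 56.2 ± 9.33 and 53.5 ± 5.45 CPM. TPI1 was 742 ± 177 CPM in vehicle and 1003 ± 102 CPM with TP-472, overlapping between groups (log2 fold change 0.44 ± 0.18, adjusted p = 0.0895).

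The later steps, which yield ATP, showed small or no changes past the test. PGK1 (chrX:77910739-78129296), which makes the first ATP of the pathway, was at 604, 768, 452 and 787 CPM in vehicle and 949.7, 1036, 1021 and 890.1 CPM with TP-472. All TP-472 libraries were higher, and its change of 0.58 ± 0.18 (adjusted p = 0.0338) fell short of the fold limit. It was 0.43 ± 0.11 without vehicle replicate 3, the lowest library. PGAM1, the phosphoglycerate mutase, was also higher in all TP-472 libraries, at 686 ± 92.2 against 869 ± 55.2 CPM, without passing (adjusted p = 0.0609). ENO1, the main enolase, was at 2197 ± 262 and 2772 ± 231 CPM (0.34 ± 0.13, adjusted p = 0.0785), and the groups overlapped.

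GAPDH, often used as a reference gene, was at 3112, 3714, 3806 and 3812 CPM in vehicle and 3850, 4146, 3982 and 3391 CPM with TP-472, a log2 change of 0.09 ± 0.13 (adjusted p = 0.613). Vehicle replicate 1 and TP-472 replicate 4 were the low libraries of their groups for GAPDH, and also for ENO1. PKM, the pyruvate kinase gene whose isoforms are not separated in gene counts, stood at 1494 ± 117 and 1441 ± 100.1 CPM. ENO2, the neuronal enolase, stood at 33.97 ± 6.37 and 33.75 ± 2.63 CPM. These values do not show that the genes stayed constant, since the standard errors of their log2 changes were 0.13, 0.12 and 0.15.

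LDHA and LDHB encode the M and H subunits of lactate dehydrogenase. LDHA (chr11:18394388-18408425), whose promoter window shown above held 5 ACGTG matches, was at 981, 998, 626 and 1001 CPM in vehicle and 1662, 1704, 1702 and 1716 CPM with TP-472. The TP-472 libraries lay closely together and far above every vehicle library, and LDHA rose by 0.91 ± 0.16 on the log2 scale (adjusted p = 0.00343). The estimate without the low library, vehicle replicate 3, was 0.77 ± 0.07. LDHB was at 537, 799.9, 268 and 777 CPM in vehicle and 858, 907, 882 and 791 CPM with TP-472, overlapping between groups. Its change of 0.53 ± 0.30 did not pass (adjusted p = 0.184) and was 0.28 ± 0.13 without vehicle replicate 3. LDHB relative to LDHA was 0.428 to 0.801 in vehicle and 0.461 to 0.532 with TP-472 (exact two-sided permutation p = 0.314).

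Lactate leaves or enters through the monocarboxylate transporters. SLC16A1 (MCT1, chr1:112911847-112957013) was at 190.4, 245.7, 93.2 and 233 CPM in vehicle and 311, 314, 319 and 311 CPM with TP-472. Every TP-472 library was higher, yet the wide vehicle group left the change of 0.72 ± 0.26 just past the limit on the adjusted p (0.0567), and it was 0.49 ± 0.09 without vehicle replicate 3. With the GC correction on all libraries SLC16A1 was called (0.635, adjusted p = 0.0206). SLC16A3 (MCT4), the exporter often linked to hypoxia, was low, at 6.43, 5.81, 11.6 and 6.21 CPM in vehicle and 6.26, 5.835, 5.69 and 4.04 CPM with TP-472, and did not pass (-0.46 ± 0.25, adjusted p = 0.176, or -0.18 ± 0.15 without vehicle replicate 3). The SLC16A3 to SLC16A1 ratio was 0.0338, 0.0236, 0.125 and 0.0266 in vehicle and 0.0202, 0.0186, 0.0178 and 0.0130 with TP-472, so these groups did not overlap. Of the exon bases of SLC16A3, 5.36% are shared with CSNK1D on the opposite strand, which was at 54.9 CPM in vehicle and 38.5 CPM with TP-472.

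A total of 12 ratios between related genes was compared by exact two-sided permutation tests, in which the smallest p-value possible is 0.0286. With all libraries, 6 ratios reached that value (adjusted p = 0.0571 over the 12) and none passed 0.05 after adjustment. Whether ratios at this smallest value pass adjustment depends only on how many of them share it. HK2/HK1 was 1.35 times as high with TP-472, PFKP/PFKL 1.79 times and PFKM/PFKL 1.52 times, while PFKFB4/PFKFB3 was 0.621, SLC16A3/SLC16A1 0.425 and BNIP3L/BNIP3 0.644 times the vehicle ratio. The SLC16A3/SLC16A1 value rested on vehicle replicate 3, being 0.620 times without it, and its permutation p was 0.0857 when any 1 TP-472 library was left out. For HK2/HK1 the exact permutation p was 0.0571 without TP-472 replicate 4. Without vehicle replicate 3, 8 ratios reached the smallest p-value (adjusted p = 0.0429), those 6 and PFKP/PFKM (1.29 times) and LDHB/LDHA (0.725 times). The ratio PDK1/PDHA1 sets the kinase against the pyruvate dehydrogenase subunit it phosphorylates, and its groups overlapped.

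**Figure D3:**
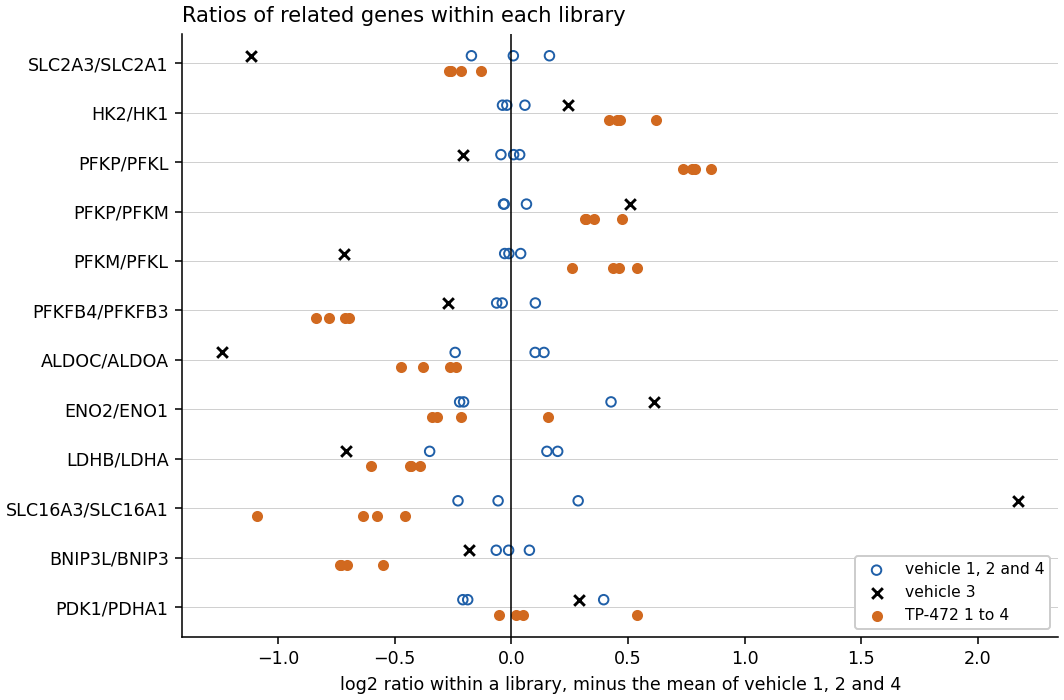
Log2 ratio of 2 related genes within each library, minus the mean of vehicle replicates 1, 2 and 4 for that ratio, with symbols as in the plot of levels. For PFKP/PFKL and PFKM/PFKL all TP-472 libraries lie right of every vehicle library, and for PFKFB4/PFKFB3 and BNIP3L/BNIP3 all lie left, whereas vehicle replicate 3 lies far out for SLC2A3/SLC2A1, ALDOC/ALDOA and SLC16A3/SLC16A1.

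Among the hypoxia response genes, none of the 4 genes of oxygen sensing and hydroxylation was called. HIF1A, which encodes HIF-1α and is known to be controlled mainly at the protein level, was at 168, 185, 114 and 177 CPM in vehicle and 194.5 ± 5.795 CPM (SD) with TP-472. All TP-472 libraries were higher by a small margin, and the change of 0.27 ± 0.15 did not pass (adjusted p = 0.178) and was 0.14 ± 0.06 without vehicle replicate 3, the low library. EGLN3 (PHD3), a HIF prolyl hydroxylase that is itself a HIF target, was low at 5.96, 4.86, 4.26 and 5.45 CPM in vehicle and 7.51, 7.385, 7.935 and 7.48 CPM with TP-472. These groups did not overlap, and the change of 0.56 ± 0.14 (adjusted p = 0.0156) fell short of the fold limit.

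KDM3A, a histone H3 lysine 9 demethylase, was at 100.1 ± 12.5 CPM in vehicle and 126 ± 11.1 CPM with TP-472, with no overlap and without passing (0.33 ± 0.12, adjusted p = 0.0587). P4HA1, a collagen prolyl hydroxylase, was at 119, 142, 61.3 and 136 CPM in vehicle and 128, 135, 131 and 130 CPM with TP-472. Its change was 0.19 ± 0.23 with all libraries and -0.02 ± 0.07 without vehicle replicate 3.

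Of 4 genes whose proteins act at mitochondria, AK4, a mitochondrial adenylate kinase, changed most. AK4 (chr1:65147549-65232145) was at 51.7, 51.4, 41.25 and 55.1 CPM in vehicle and 97.2, 101.3, 100.7 and 110.5 CPM with TP-472. The lowest TP-472 library was far above the highest vehicle one, and the change was 1.04 ± 0.11 (adjusted p = 0.000378). It was also called under all 28 alternative settings. PDK1, which inhibits pyruvate dehydrogenase and so holds pyruvate back from the mitochondrion, was at 55.1, 44.9, 34.9 and 46.2 CPM in vehicle and 56.5, 55.4, 53.0 and 72.9 CPM with TP-472. The groups for PDK1 overlapped at vehicle replicate 1, and the change of 0.39 ± 0.16 did not pass (adjusted p = 0.0846).

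BNIP3 and BNIP3L encode related receptors for mitophagy. BNIP3 (chr10:131966455-131982013) was at 151, 181, 110.5 and 188 CPM in vehicle and 229, 249, 252 and 214 CPM with TP-472. Every TP-472 library was higher, with a change of 0.58 ± 0.17 (adjusted p = 0.0259) that fell short of the fold limit. With the GC correction on all libraries BNIP3 just passed that limit (0.59, adjusted p = 0.0302). It was not called with the replicate block added to that correction (0.64, adjusted p = 0.0510). Without vehicle replicate 3 its change was 0.44 ± 0.09, and 0.41 with the GC correction, both under the fold limit. BNIP3L was at 174, 196, 106 and 196 CPM in vehicle and 153, 164, 165 and 159 CPM with TP-472, with a change of -0.07 ± 0.18 and, without vehicle replicate 3, of -0.24 ± 0.06 (adjusted p = 0.0108). Within a library, BNIP3L relative to BNIP3 was 1.15, 1.08, 0.962 and 1.04 in vehicle and 0.669, 0.657, 0.6565 and 0.746 with TP-472, so every TP-472 library lay below every vehicle library.

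The secreted factors differed from each other. ADM (chr11:10304680-10307397), which encodes the vasodilator adrenomedullin, was at 15.8, 17.6, 19.95 and 19.6 CPM in vehicle and 35.2, 38.0, 32.9 and 32.2 CPM with TP-472. Its groups lay well apart, and vehicle replicate 3 was near vehicle replicate 4, giving a change of 0.92 ± 0.12 (adjusted p = 0.000772). VEGFA, the angiogenic growth factor, was at 33.25, 33.7, 51.2 and 36.7 CPM in vehicle and 49.98, 45.8, 46.45 and 45.6 CPM with TP-472. For VEGFA vehicle replicate 3 exceeded every TP-472 library and the other vehicle libraries lay below them, and the change was 0.28 ± 0.15 (adjusted p = 0.170) with all libraries and 0.44 ± 0.06 (adjusted p = 0.000366) without that one, under the fold limit in both.

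CA9, the membrane carbonic anhydrase IX, is among the most hypoxia-specific targets of HIF. Its estimated counts were 0, 0, 0 and 3 in the vehicle libraries and 0, 2, 0 and 1 in the TP-472 libraries. It was thus at or near 0 in both groups, and no change could be detected at this depth.

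The remaining members rose. NDRG1, a stress-responsive gene long used as a hypoxia marker, was at 20.7, 23.2, 25.6 and 22.3 CPM in vehicle and 36.9, 40.4, 39.6 and 35.7 CPM with TP-472, with no overlap and a change of 0.73 ± 0.11 (adjusted p = 0.00141). ANKRD37 (chr4:185396021-185400628), a small ankyrin repeat gene and HIF target, was low at 1.66, 2.33, 2.03 and 2.445 CPM in vehicle and 4.685, 4.735, 4.99 and 3.88 CPM with TP-472. Its groups did not overlap, and its change of 1.11 ± 0.18 (adjusted p = 0.00195) was within the errors of that of AK4. Of the exon bases of ANKRD37, 35.2% overlap UFSP2 on the opposite strand, which was more abundant (28.7 CPM in vehicle and 33.3 CPM with TP-472), and the methods describe strand-specific libraries. Whether the counting made use of strand is not given in the sources used here, and without it reads from the shared stretch cannot be told apart.

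Summed over genes, the glycolysis members took 1.30%, 1.36%, 1.44% and 1.43% of all counts in the vehicle libraries and 1.64%, 1.62%, 1.63% and 1.56% in the TP-472 libraries. The hypoxia response members took 0.0954%, 0.0931%, 0.0695% and 0.0966% against 0.1115%, 0.108%, 0.111% and 0.120%. All TP-472 libraries lay above all vehicle libraries for both sums, and the glycolysis sum is dominated by a few abundant genes. Per kilobase of exon, the level in vehicle was highest for GAPDH at 1211 ± 113 CPM per kb, then ENO1 at 416 ± 49.6, ALDOA at 303 ± 104, TPI1 at 275 ± 65.7 and PGAM1 at 267 ± 35.9. The level per length of GAPDH stood apart, and those of ALDOA, TPI1 and PGAM1 did not differ beyond their spread. The place and spread of ALDOA rested on vehicle replicate 3: without it ENO1 was at 429.9 ± 50.8, TPI1 at 301 ± 48.4, PGAM1 at 278 ± 34.8 and ALDOA at 251 ± 6.97 CPM per kb, so that ENO1 also stood apart. With all libraries LDHB followed at 199.6 ± 83.4, PKM at 174 ± 13.65, LDHA at 145 ± 29.6 and PGK1 at 118.5 ± 28.5 CPM per kb. These lay again within the spread of their neighbors. Without vehicle replicate 3 they were at 236 ± 48.8, 169 ± 9.94, 160 ± 1.79 and 131 ± 18.2 CPM per kb. LDHB then lay above PKM, and LDHA above PGK1, by more than their SDs. With TP-472, LDHA stood at 273 ± 3.78 and LDHB at 288 ± 16.8 CPM per kb. Their order depended on the length used, being 702 for LDHA and 559 for LDHB per kb of the longest transcript. The hypoxia response genes all lay below the 10 most abundant glycolysis genes, from BNIP3L at 39.0 ± 9.87 down to EGLN3 at 0.697 ± 0.100 CPM per kb and CA9 near 0. With length taken from the longest transcript instead, PKM moved from the 7th to the 3rd place, the other 8 genes named here from GAPDH to PGK1 shifting by 2 places at most.

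**Figure D4:**
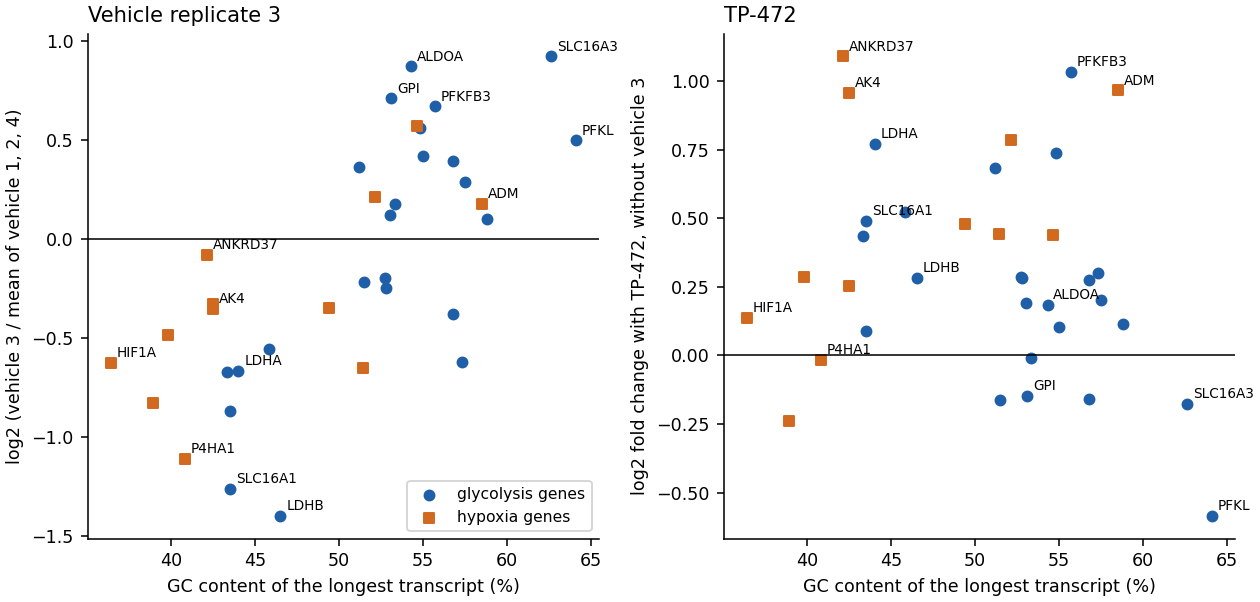
GC content of the longest transcript of each of the 36 members against the log2 ratio of vehicle replicate 3 to the mean of the other vehicle libraries (left) and against the log2 fold change with TP-472 without that library (right). Members above 50% GC lie mostly above 0 in the left panel and those below 50% GC lie below it, whereas in the right panel genes with large changes occur at both low GC (ANKRD37, AK4) and high GC (ADM, PFKFB3).

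Across the 36 members, the deviation of vehicle replicate 3 went with GC content at r = 0.70, while the TP-472 change computed without that library had r = -0.20, both given as descriptions. Within the parts the latter was r = -0.47 over the 24 glycolysis genes and r = 0.50 over the 12 hypoxia response genes, opposite in sign. The 12 hypoxia response genes tested had a median GC content of 42.5% and the glycolysis genes 53.2%. With a GC correction, the median log2 fold change of the glycolysis genes was 0.37 in place of 0.22.

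Other genes of the pathways were counted from lists written with earlier results of these data known, each against the background of 12.0% called higher and 14.9% lower. Among regulators of the HIF pathway, 1 of 15 tested was called higher and 1 lower. ELOC, the elongin C subunit of the VHL ubiquitin ligase, was at 40.4 ± 15.9 CPM in vehicle and 74.3 ± 3.75 CPM with TP-472 (0.88 ± 0.29, adjusted p = 0.0393). ARNT, the partner of HIF-1α, fell from 71.0, 72.0, 61.5 and 69.8 CPM to 43.7, 41.6, 41.4 and 43.7 CPM (-0.69 ± 0.09, adjusted p = 0.00103). EPAS1, which encodes HIF-2α, was at 5.92 ± 2.45 and 9.05 ± 1.62 CPM and did not pass (0.61 ± 0.27, adjusted p = 0.104), whereas it was called at 0.94 without vehicle replicate 3.

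Of 45 other hypoxia-inducible genes tested, 14 were called higher and 5 lower (14 and 7 of 46 without vehicle replicate 3), with a median log2 fold change of 0.08. Calls thus went in both directions, with more genes higher than lower, where 12.0% of all genes tested were called higher and 14.9% lower. The gene added to the test without vehicle replicate 3 was CXCR4, which was called higher. It was at 0.055 to 0.115 CPM in vehicle and 0.634 to 1.37 CPM with TP-472. CXCR4 thus passed the filter on low values through the TP-472 group. FAM162A, called higher with all libraries, was not called without vehicle replicate 3. STC1, which encodes the secreted stanniocalcin 1, rose from 1.94, 1.95, 2.46 and 2.56 CPM to 10.5, 10.7, 10.15 and 12.8 CPM (2.30 ± 0.16, adjusted p = 4.59e-05). ANGPTL4, an inhibitor of lipoprotein lipase, rose from 6.66 ± 2.895 to 30.7 ± 2.07 CPM (2.21 ± 0.26). BHLHE40, a transcriptional repressor of the circadian system, rose from 10.45 ± 2.84 to 42.2 ± 3.03 CPM (2.01 ± 0.18). HMOX1, the heme oxygenase also known as a target of NRF2, rose from 54.0 ± 13.6 to 166.9 ± 3.99 CPM (1.63 ± 0.17). Each of these also answers to signals other than oxygen. ZNF395 (-0.997 ± 0.13), KLHL24 (-0.83 ± 0.21), GYS1, the muscle glycogen synthase (-0.82 ± 0.24), and PLOD1, a collagen lysyl hydroxylase (-0.81 ± 0.15), were called lower, GYS1 not without vehicle replicate 3.

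Genes that control glucose uptake and the use of glucose 6-phosphate were also listed, and 2 of the 6 uptake regulators tested were called higher and 1 lower. ARRDC4 and TXNIP, paralogous arrestins that restrain glucose uptake and respond to glucose 6-phosphate through MondoA and ChREBP, rose from 3.83 ± 1.44 to 29.4 ± 2.75 CPM (2.94 ± 0.30, adjusted p = 0.000253) and from 71.6 ± 14.9 to 181.8 ± 2.69 CPM (1.34 ± 0.15, adjusted p = 0.000434). MLXIPL, which encodes ChREBP, fell from 2.70 ± 1.83 to 0.567 ± 0.108 CPM (-2.24 ± 0.43, adjusted p = 0.00494) and passed the filter on low values through the vehicle group. MLX, ARRDC3 and MLXIP, the MondoA gene, did not pass.

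A list of other glycolytic isozymes, sugar transporters and related genes was also counted. Of 14 tested, 1 was called higher and 4 lower, and without vehicle replicate 3 PGAM5 was called higher too (0.44 and then 0.68). Whether PGAM5 acts as a glycolytic enzyme was not tested. TIGAR, a fructose 2,6-bisphosphatase that opposes phosphofructokinase and is a p53 target, rose from 11.95 ± 2.295 to 26.5 ± 3.21 CPM (1.15 ± 0.17). The transporters SLC2A12 (-1.60 ± 0.20), SLC2A10 (-1.14 ± 0.15) and SLC2A11 (-0.70 ± 0.15) fell, as did the mitochondrial lactate dehydrogenase LDHD (-2.11 ± 0.28), which passed the filter on low values through the vehicle group. All 4 gluconeogenesis genes tested had negative changes and 3 were called lower, PCK2 (-1.34 ± 0.15), PC (-1.07 ± 0.27, or -0.70 without vehicle replicate 3) and the glucose 6-phosphate transporter SLC37A4. In the pentose phosphate pathway, 1 of 10 was called higher (PRPS1, 0.73 ± 0.15) and 2 lower, among them H6PD, an enzyme of the endoplasmic reticulum (-2.08 ± 0.24).

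In the hexosamine branch 2 of 7 were called higher, UAP1 (1.16 ± 0.19) and GNPNAT1 (0.66 ± 0.16, not called without vehicle replicate 3), while GFPT1, the entry enzyme, did not pass. In glycogen metabolism 3 of 15 were called higher and 2 lower, and 1 and 2 without vehicle replicate 3. PYGM, the muscle glycogen phosphorylase, rose from 0.270 ± 0.032 to 1.37 ± 0.196 CPM and passed the filter through the TP-472 group. PHKA2, a phosphorylase kinase subunit, fell (-0.89 ± 0.10). In the serine and one-carbon branch 1 of 9 was called, MTHFD2L (0.84 ± 0.27). For the entry of pyruvate into mitochondria, 2 of 13 were called, both lower, the pyruvate dehydrogenase kinases PDK4 (-1.35 ± 0.23) and PDK2 (-1.03 ± 0.24), whereas their hypoxia-linked paralog PDK1 did not pass. In the TCA cycle 1 of 18 was called higher, IDH3A (0.64 ± 0.15, not called without vehicle replicate 3), and 1 lower, IDH2 (-1.13 ± 0.14).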

How the data were processed

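RNA-seq of SK-UT-1 cells was analysed, 4 vehicle and 4 TP-472 libraries. According to the methods and processing notes, the authors mapped reads with STAR and estimated transcript abundance with Salmon 1.4.0 on GRCh38 and GENCODE 34. The deposited values are estimated counts summed by gene, neither normalized nor filtered, and 13.8% to 23.2% of the 60282 values of a library, zeros included, differed from a whole number by any amount. The methods describe strand-specific libraries, while the labels name a TruSeq RNA kit, and whether counting used strand is not given in the sources used here. Here counts were rounded, genes over 1 CPM in at least 4 libraries were kept (14073 of 60282), TMM scaling was applied, and groups were compared with the quasi-likelihood test of edgeR 4.0.16 in R 4.3.3 with Benjamini-Hochberg adjustment, and no covariate. A call required an adjusted p under 0.05 and over 1.5-fold. CPM values are TMM-scaled, and ratios were compared with exact permutation tests over 70 assignments, fewer when a library was left out. Lengths, GC content and gene positions came from GENCODE 29, promoters from RefSeq. The members and lists were chosen with earlier results of these data known. All members are named, and from other lists the called genes of largest change, up to 4 per direction, or any in lists of 8 or fewer tested. The values of 1 listed gene are not reported here, although counts include it. DESeq2 1.42.0, limma 3.58.1, other scalings, filters, thresholds, GC corrections, a replicate block and leaving out each library were tried. On simulated counts with 13919 genes the test called 45 of 87 genes changed by 1 on the log2 scale and 107 of 113 changed by 2, with 7 calls among 13724 unchanged genes. Changed genes lost to the filter count as not called, so these numbers exceed the 13919 genes tested.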

Additional observations from a re-analysis of the deposited data

Results flagged for a closer look

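Within a group of 4 libraries, the highest or lowest one was set apart for 8 of the 74 gene and group combinations of the members. Chance flags about 1 in 20 such groups, but the combinations share libraries and are not independent, so the count is a description. Vehicle replicate 3 was the one in 4 of them, high for PFKFB3 (49.85 CPM, the others 29.8 to 32.45), ALDOA (1795 CPM, the others 950.4 to 1001) and SLC16A3 (11.64 CPM, the others 5.81 to 6.43) and low for LDHA (626 CPM, the others 981 to 1001). TP-472 replicate 4 was high for HK2 (132.9 CPM, the others 122.7 to 124.0) and ENO2 (37.67 CPM, the others 32.2 to 32.85). Vehicle replicate 1 was low for GAPDH (3112 CPM, the others 3714 to 3812). CA9 was at 0.08431 CPM in vehicle replicate 4 and at 0 in the other vehicle libraries, which is 3 estimated counts and sets the library apart only because the others hold none. What set these libraries apart was not tested.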

How the results depend on the processing

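The number of genes called over all genes tested was 3789, 1123 when tested against 1.5-fold, 1207 at an adjusted p under 0.01 with over 2-fold, and 2744 to 4322 when 1 library was left out. Of the glycolysis genes 4 were called, 7 by DESeq2, 8 by limma-voom, 7 without a fold limit, and 0 both when tested against 1.5-fold and at an adjusted p under 0.01 with over 2-fold (7 of them had an adjusted p under 0.05 by edgeR at any fold). Of the hypoxia response genes 4 were called, and 2 (AK4 and ANKRD37) at an adjusted p under 0.01 with over 2-fold. The median log2 fold change of the glycolysis genes was 0.216, and 0.366 with a GC correction and 0.376 with the replicate block added to it. The isozyme ratios passing adjustment numbered 0, and 0 to 8 when 1 library was left out, with 8 without vehicle replicate 3. Genes with changes near 0 turned sign. ALDOA (-0.085) was at 0.212 in limma-voom with quality weights, 0.068 with the GC correction, 0.080 with the GC correction and block, 0.187 with the GC correction without vehicle replicate 3, and -0.179 to 0.183 when 1 library was left out. ALDOC (-0.072) was at 0.080 with the GC correction, 0.134 with the block added, and -0.16 to 0.002 when 1 library was left out. ENO2 (-0.009) was at 0.007 in limma-voom, 0.164 with quality weights, 0.006 with the replicate block, 0.142 with the GC correction, 0.143 with the block added, 0.122 with the GC correction without vehicle replicate 3, and -0.088 to 0.104 when 1 library was left out. PKM was at 0.031 with the GC correction and 0.033 with the block added. P4HA1 (0.194) was at -0.059 with quality weights, -0.037 with the GC correction without vehicle replicate 3, and -0.017 to 0.31 when 1 library was left out. BNIP3L ranged from -0.237 to 0.013. The log2 ratio differences ranged from -0.339 to 0.121 for ALDOC/ALDOA, -0.066 to 0.174 for PDK1/PDHA1 and -0.218 to 0.208 for SLC2A3/SLC2A1. The cause of these turns was not tested. The GC correction without vehicle replicate 3 was chosen after seeing the data. Deviations of same-numbered libraries from their group means had correlations of r = -0.055, 0.116, -0.171 and -0.177. With 1 value per replicate number, this cannot show whether same-numbered samples were handled together, and the main fit used no pairing. With the replicate block 3055 genes were called in all, 6 of them glycolysis and 4 hypoxia response members. Depth limits CA9 in particular, and precision is limited by vehicle replicate 3.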
